A study of Mus musculus with 11 samples.

Results

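The Z-disc is the plate that borders each sarcomere of striated muscle and anchors its thin filaments. 10 genes of Z-disc proteins and of proteins that respond to mechanical load there were followed in the quadriceps of aged mice: Actn2, Actn3, Myoz1, Myoz2, Myot, Ldb3, Des, Csrp3, Ankrd1 and Ankrd2. They were taken by symbol from 53465 genes in the count table. All 10 were found, each under 1 Ensembl identifier, and all 10 passed the filter on low counts, which left 14117 genes tested. RNA was measured in 5 libraries of mice given the solvent DMSO and 6 libraries of mice given myriocin, an inhibitor of serine palmitoyltransferase, the first enzyme of sphingolipid synthesis. Both groups carried the genotype label C57L/6JRj and are described as aged. Myriocin was given for 10 weeks from an age of 18 months, while no age in months or length of treatment is listed for the DMSO libraries. The design asks how the muscle transcripts of old mice differ after this treatment. Dose, route and sex were not stated in the labels. Nothing in them ties a library to a mouse of its own, so p-values here reflect the spread from library to library, which may be technical.

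Alpha-actinins cross-link the actin filaments of neighbouring sarcomeres at the Z-disc, and titin, myotilin, the PDZ-LIM protein ZASP and the myozenins bind to them there. Myozenins, also called calsarcins, tether the phosphatase calcineurin, which signals to the slow fibre programme. Desmin forms the intermediate filaments that tie Z-discs of neighbouring myofibrils to each other and to the membrane. The muscle LIM protein, encoded by Csrp3, and the ankyrin repeat proteins Ankrd1 and Ankrd2, which bind titin in the I-band, are known to be induced by stretch, load or injury of muscle. In rodents Actn3 and Myoz1 are known as fast fibre isoforms, and Myoz2, Csrp3 and Ankrd2 are known for their enrichment in slow fibres.

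The promoters of Actn2, Myoz2, Csrp3 and Ankrd2, which correlated between libraries, are shown with that of the stretch-induced gene Ankrd1. No pair of members passed the test of correlation without Myriocin replicate 3, and shared regulation of these genes was not tested. Each window runs from 250 bases before to 50 bases after the RefSeq start (GRCm38.p6) and is written 5′ to 3′ on the gene's strand. Capitals mark E-boxes, MCAT elements (CATTCC on either strand, the site of TEAD factors) and MEF2 sites. An E-box was any CANNTG, a pattern wider than the sites of myogenic regulators alone.
Actn2, chr13:12340683-12340982, minus strand: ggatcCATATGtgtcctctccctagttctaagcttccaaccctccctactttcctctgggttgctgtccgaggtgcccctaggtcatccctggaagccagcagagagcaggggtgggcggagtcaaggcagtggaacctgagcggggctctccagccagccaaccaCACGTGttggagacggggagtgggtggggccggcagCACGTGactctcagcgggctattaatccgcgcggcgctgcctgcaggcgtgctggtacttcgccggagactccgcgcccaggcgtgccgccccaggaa
Myoz2, chr3:123034938-123035237, minus strand: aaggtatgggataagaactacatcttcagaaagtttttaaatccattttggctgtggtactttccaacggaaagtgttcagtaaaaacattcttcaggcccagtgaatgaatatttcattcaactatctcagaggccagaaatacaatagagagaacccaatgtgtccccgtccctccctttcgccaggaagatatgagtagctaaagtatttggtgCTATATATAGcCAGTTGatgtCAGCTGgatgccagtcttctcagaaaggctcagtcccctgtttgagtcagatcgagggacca
Csrp3, chr7:48848002-48848301, minus strand: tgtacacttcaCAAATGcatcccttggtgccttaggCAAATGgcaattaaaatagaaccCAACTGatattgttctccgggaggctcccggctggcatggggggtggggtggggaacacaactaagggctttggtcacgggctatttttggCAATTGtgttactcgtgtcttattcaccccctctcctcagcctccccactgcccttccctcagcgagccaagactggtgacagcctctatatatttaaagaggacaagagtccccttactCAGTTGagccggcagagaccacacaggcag
Ankrd2, chr19:42035777-42036076, plus strand: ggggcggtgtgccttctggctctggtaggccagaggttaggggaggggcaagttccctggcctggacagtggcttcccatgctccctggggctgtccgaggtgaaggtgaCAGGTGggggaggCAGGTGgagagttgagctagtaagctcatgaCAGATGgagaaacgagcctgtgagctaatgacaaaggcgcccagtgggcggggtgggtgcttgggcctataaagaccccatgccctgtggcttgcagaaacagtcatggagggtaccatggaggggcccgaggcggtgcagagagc
Ankrd1, chr19:36119795-36120094, minus strand: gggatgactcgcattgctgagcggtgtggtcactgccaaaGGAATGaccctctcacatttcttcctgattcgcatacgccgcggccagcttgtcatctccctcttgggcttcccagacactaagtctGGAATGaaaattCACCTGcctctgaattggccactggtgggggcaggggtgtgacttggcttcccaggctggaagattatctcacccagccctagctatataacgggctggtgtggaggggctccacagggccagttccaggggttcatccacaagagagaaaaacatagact
The Csrp3 window held 5 E-boxes, those of Actn2 and Ankrd2 held 3 each, Myoz2 held 2 and Ankrd1 held 1. An E-box occurs in 72.3% of 32851 promoter windows of this length and 3 or more in 17.6%. Myoz2 alone of the 5 had a MEF2 site, CTATATATAG, at position -33 from the start, beside its 2 E-boxes, and 3.19% of all windows hold such a site. Ankrd1 alone of the 5 had MCAT elements, 2 of them, against 14.7% of all windows with at least 1. The RefSeq start of Ankrd1 lay 255 bases from its start in the GENCODE annotation. For Actn2, Myoz2, Csrp3 and Ankrd2 this distance was 18 to 28 bases. Csrp3 and Ldb3 had 2 RefSeq windows listed each, and only the one nearest the GENCODE start was read. By the GENCODE start of Ankrd1, at 36120099 on the minus strand, its window lies inside the gene. Its MCAT elements are then downstream of the start. A CArG box, the site of serum response factor, was in none of the 5, and 1.63% of all windows hold one. Among the other members the windows of Ldb3 and Des were read as well, and Ldb3 had 1 CArG box while Des had 2 E-boxes. Both strands were searched. A match describes these letters only, and a window without one says nothing of binding elsewhere.

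Each library held 22241131 to 23163721 reads counted in genes, so that 3 counts, taken as the floor, stood for 0.130 to 0.135 CPM (counts scaled by the library's gene total). The 10 members together took 2.36% to 3.32% of the gene counts. The 8 genes that mark skeletal muscle summed to 148260 to 172120 CPM with DMSO and 161310 to 184290 CPM with myriocin, none of them at 0, while the 7 heart markers summed to 6.92 to 21.2 CPM. Transcripts that mark fibre types differed widely between libraries of each group. The 10 slow fibre genes summed to 125 to 838 CPM with DMSO and to 98.3 to 834 CPM with myriocin. Myh2, the myosin heavy chain of type IIA fibres, ran from 1159 to 2162 CPM with DMSO and from 364 CPM in Myriocin replicate 3 to 1894 CPM in Myriocin replicate 4. Earlier results of these data had marked DMSO replicates 4 and 5 and Myriocin replicate 4 for liver transcripts (Alb 85.6, 63.9 and 73.7 CPM), and the 7 hepatocyte markers summed to 8.15 to 114 CPM with DMSO and 7.77 to 120 CPM with myriocin. Neutrophil markers reached 704 CPM in DMSO replicate 2.

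The levels of the members spanned a wide range (per-length levels, RPKM, reads per kilobase of merged exons and CPM). Actn3 was the most abundant, at 4652 ± 741 RPKM (SD, n = 11), followed by Des at 1382 ± 138 and Myoz1 at 1332 ± 81.9. Myot stood at 493.8 ± 47.0, Ldb3 at 358 ± 24.2 and Actn2 at 267 ± 59.9 RPKM. The mechanosensors were far lower: Ankrd2 was at 86.7 ± 34.7, Csrp3 at 12.1 ± 4.25 and Ankrd1 at 9.28 ± 3.54 RPKM, and Myoz2 lay at 9.19 ± 3.97. In this order the library ranges of Des and Myoz1 overlapped, as did those of Ldb3 and Actn2, of Csrp3 and Ankrd1, and of Ankrd1 and Myoz2. The other neighbours did not overlap in any library.

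**Figure D1:**
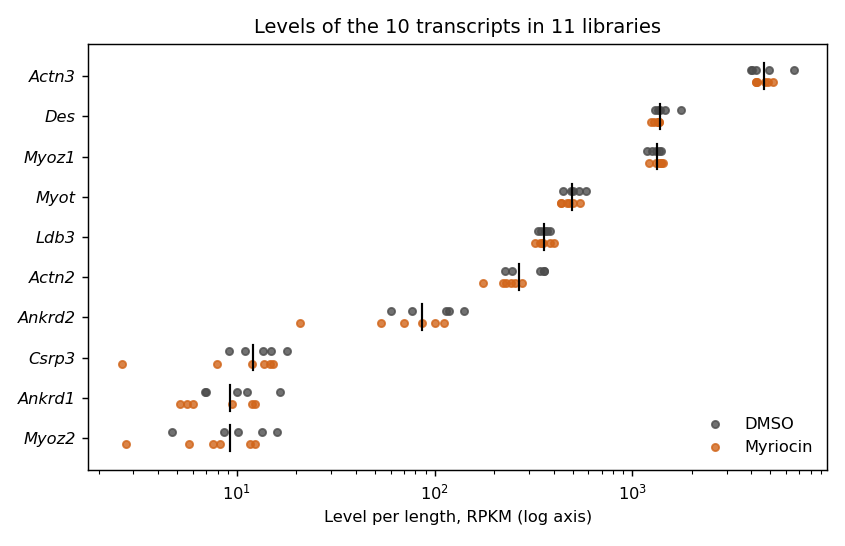
Per-length level (RPKM, log axis) of each of the 10 transcripts in the 5 DMSO and 6 myriocin libraries, 1 point per library, with a black line at the mean of all 11. Actn3 lies highest, at 4652 RPKM, and Myoz2 lowest, at 9.19 RPKM, and the points of the low members are spread more widely.

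The members fell into an even and an uneven set. The SD of log2 CPM over the 11 libraries was 0.11 for Ldb3, Myoz1 and Des, 0.12 for Myot and 0.20 for Actn3, against a median of 0.20 over all 14117 genes tested. It was 0.76 for Ankrd2 and Csrp3, 0.73 for Myoz2 and 0.53 for Ankrd1, and 0.30 for Actn2. Of all tested genes 2.03% varied as much as Ankrd2 and 2.06% as much as Csrp3, while 84.5% varied as much as Ldb3. The highest library stood 6.85-fold above the lowest for Csrp3 and 6.77-fold for Ankrd2, but 1.21-fold for Myoz1 and 1.25-fold for Ldb3. The lowest library of Ankrd2 still held 23.6 CPM.

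None of the 10 members passed the test between treatments. With edgeR's quasi-likelihood test, adjusted over 14117 genes by Benjamini-Hochberg, 0 of 10 members were called at an adjusted p under 0.05, and percent called over all genes was 0. The same holds of members with DESeq2, with limma-voom and in the other settings tried, while DESeq2 called 6 genes outside the list. In 8 of 10 members the log2 fold change (myriocin minus DMSO) was negative, against 53.7% of all genes, with a median of -0.16 against -0.01 over all genes tested. Actn2, Myoz2, Csrp3 and Ankrd2, all negative, correlated between libraries, so the members are not independent of each other. The median log2 CPM of the members, each taken from its own mean, had an SD of 0.19 between libraries within groups. At an unadjusted p under 0.05 there was 1 member, Actn2, which was lower, against 4.68% (660) of all genes in either direction and 2.34% (331) in the lower one. The ranges of the groups overlapped for each of the 10. Leaving out DMSO replicate 2 brought the median of the members to -0.04, and leaving out Myriocin replicate 3 brought it to -0.06.

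**Figure D2:**
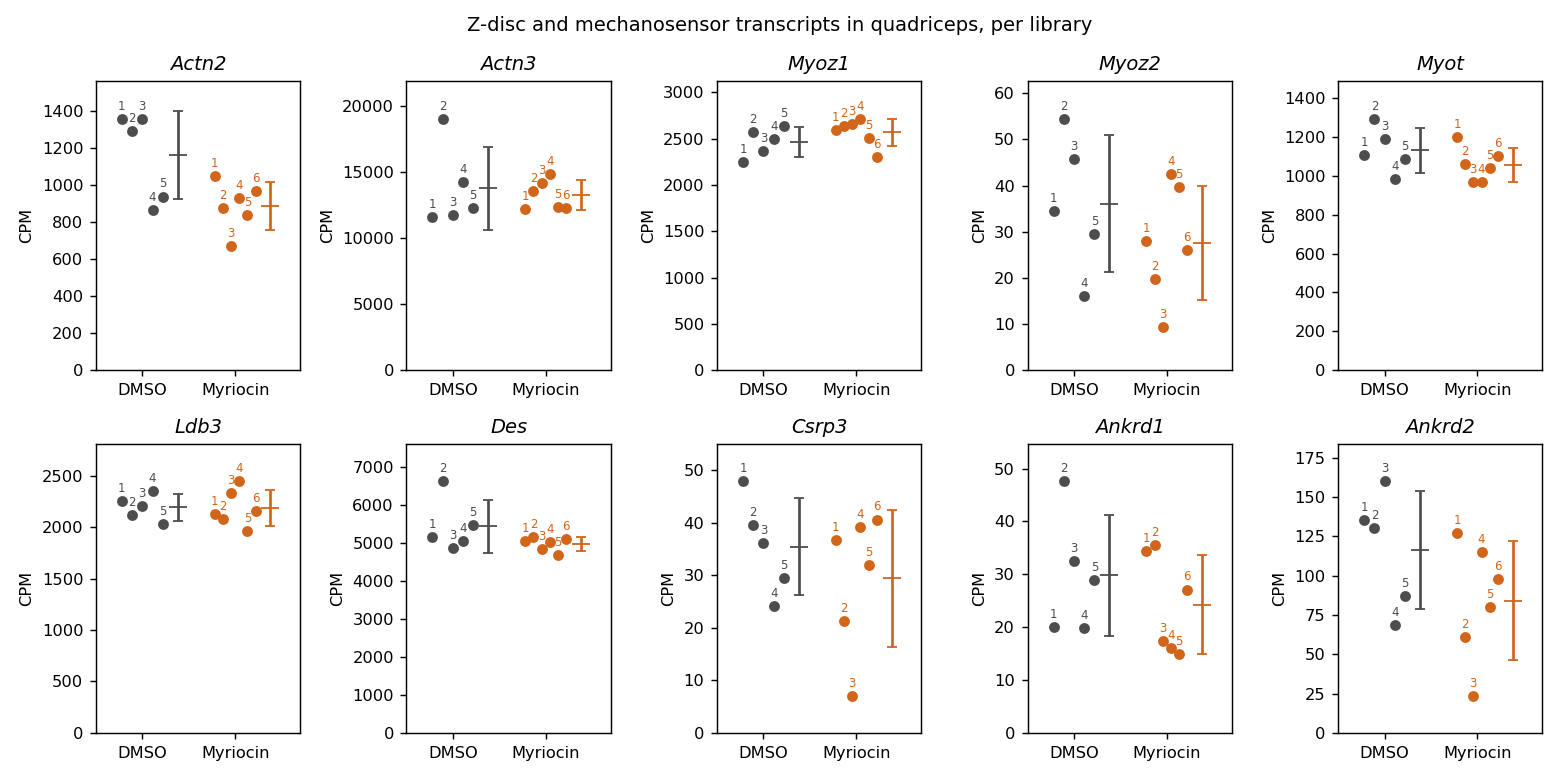
CPM on library totals for the 10 members, 1 point per library with its replicate number, and beside each group its mean with the SD (n = 5 DMSO, n = 6 myriocin). The groups overlap in every panel, and Myriocin replicate 3 is lowest for Actn2, Myoz2, Csrp3 and Ankrd2.

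**Figure D3:**
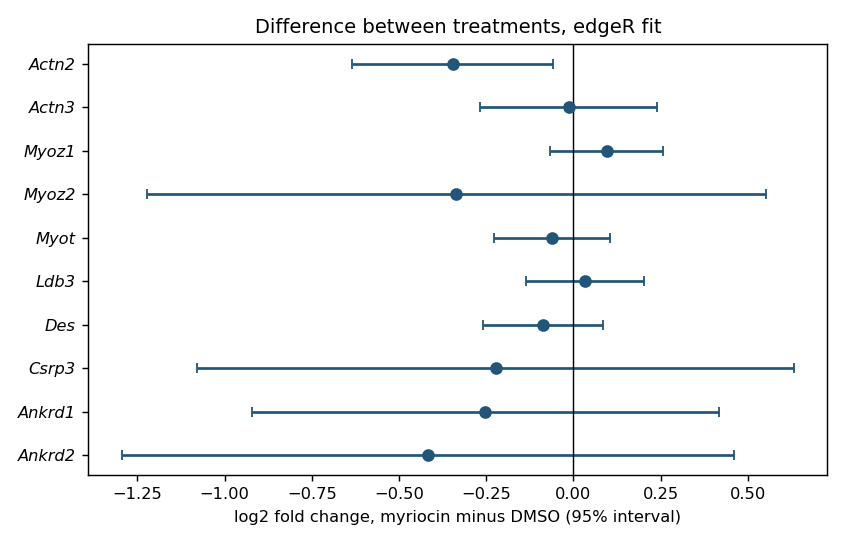
Log2 fold change, myriocin minus DMSO, of each member in the edgeR fit, with its 95% interval. The interval of Actn2 runs from -0.63 to -0.06, and those of the other 9 members include 0.

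Actn2 (ENSMUSG00000052374, GRCm38 chromosome 13, 12269426 to 12340760, minus strand), an alpha-actinin of heart and skeletal muscle that in mice is missing from many fast fibres, had the lowest p of the members. Its DMSO libraries 1 to 5 held 1356, 1291, 1354, 867 and 937 CPM. The myriocin libraries ran from 669 CPM through a median of 900.3 to 1048 CPM. DMSO replicates 1, 2 and 3 lay above all myriocin libraries, and replicates 4 and 5 lay among them. The log2 fold change was -0.35 (SE 0.13, 95% interval -0.63 to -0.06; edgeR unadjusted p = 0.0218, adjusted p = 0.936), with 6 of 6 myriocin libraries below the DMSO mean. Over the alternatives its value lay between -0.55 and -0.27 and its adjusted p between 0.441 and 0.9995. The unadjusted p was under 0.05 in 21 of 24 alternatives. In edgeR it was 0.0644 and 0.0645 without DMSO replicate 1 or 3, and 0.0546 without DMSO replicates 2 and 5 and Myriocin replicate 4. The value was -0.55 without the 3 libraries with liver transcripts (edgeR unadjusted p = 0.0015, adjusted p = 0.659). Myh2 also had a negative value (1743 CPM on average with DMSO, 1142 with myriocin; log2 fold change -0.56, SE 0.35, adjusted p = 0.936 in edgeR), and its part in the value of Actn2 was not tested. In bulk tissue, fewer fibres of a type and less RNA per fibre cannot be told apart.

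Actn3 (ENSMUSG00000006457, chromosome 19, 4861216 to 4877909, minus strand), the alpha-actinin of fast fibres, held 11610, 19046, 11725, 14280 and 12255 CPM in DMSO libraries 1 to 5. The myriocin libraries lay between 12245 and 14877 CPM, with a median of 12982. DMSO replicate 2 stood above every other library, and the rest of the groups covered the same range. The log2 fold change was -0.01 with an interval from -0.27 to 0.24, and it was 0.11 without DMSO replicate 2. Per length, Actn3 exceeded Actn2 by a ratio of 16.1 ± 4.69 in the DMSO group (SD, n = 5) against 20.05 ± 4.34 in the myriocin group (SD, n = 6). The ratio was 11.2 to 21.6 in DMSO libraries and 15.3 to 27.7 in myriocin libraries, the highest in Myriocin replicate 3, so the groups overlapped. The difference in ratio was not tested.

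The 2 myozenins differed in how evenly they were expressed. Myoz1 (ENSMUSG00000068697, chromosome 14, 20649107 to 20656540, minus strand), the fast isoform, had 2464 ± 158 CPM (SD, n = 5) in DMSO libraries. Its level was 2567 ± 149 CPM (SD, n = 6) after myriocin, and the log2 fold change was 0.10 (SE 0.08; interval -0.07 to 0.26; edgeR adjusted p = 0.936). Myoz2 (ENSMUSG00000028116, chromosome 3, 123006206 to 123035015, minus strand), the slow and cardiac isoform, held 34.6, 54.5, 45.8, 16.1 and 29.4 CPM in DMSO libraries 1 to 5. Its myriocin libraries ran from 9.44 CPM in replicate 3 through a median of 27.0 to 42.4 CPM in replicate 4. High and low libraries occurred in both groups. The log2 fold change was -0.34 (SE 0.40) with an interval from -1.22 to 0.55, that is, from 0.43-fold to 1.46-fold. It was -0.16 without Myriocin replicate 3 or without DMSO replicate 2, -0.52 without DMSO replicate 4 or without Myriocin replicate 4, and -0.81 without the 3 libraries marked for liver transcripts, and passed the test in none of these. Per length the ratio of Myoz1 to Myoz2 ran from 85.5 to 281 with DMSO and from 114 to 509 with myriocin.

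Myotilin, ZASP and desmin, structural proteins of the Z-disc and its surroundings, kept narrow ranges. Myot (ENSMUSG00000024471, chromosome 18, 44334074 to 44355724, plus strand), which binds alpha-actinin and bundles actin, had 1132 ± 116 CPM in the DMSO group (SD, n = 5) against 1056 ± 87.8 in the myriocin group (SD, n = 6), with an interval of the log2 fold change from -0.23 to 0.10. Ldb3 (ENSMUSG00000021798, chromosome 14, 34526603 to 34588682, minus strand), which encodes ZASP, had 2190.4 ± 127 and 2184 ± 175 CPM, with an interval from -0.14 to 0.20. Both 95% intervals lay within 0.23 of 0 on the log2 scale.

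Des (ENSMUSG00000026208, chromosome 1, 75360329 to 75368579, plus strand) held 5171, 6624, 4864, 5049 and 5483 CPM in DMSO libraries 1 to 5. The myriocin libraries lay within 4677 to 5152 CPM, with a median of 5046. DMSO replicate 2 was again the highest library, and 6 of 6 myriocin libraries lay below the DMSO mean. The log2 fold change was -0.09 (SE 0.08; interval -0.26 to 0.08; edgeR adjusted p = 0.936), and it was -0.03 without DMSO replicate 2. The exons of Des overlap 220 bases of the predicted gene Gm15179 on the opposite strand. Whether counting used the strand is not stated, so reads of these 2 genes may not have been told apart. No other member shared exon bases with an annotated gene.

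Ankrd2 (ENSMUSG00000025172, chromosome 19, 42036000 to 42045110, plus strand), the stretch-responsive ankyrin repeat protein of slow muscle, had the most negative log2 fold change of the members. DMSO libraries 1 to 5 held 135, 130.2, 160, 68.4 and 87.1 CPM. The myriocin libraries ran from 23.6 CPM in replicate 3 through a median of 89.0 to 127 CPM in replicate 1. Replicate 3 lay far below all other libraries, and the other myriocin libraries held 61.2 CPM or more, mostly within the DMSO range. Its log2 fold change was -0.42 (SE 0.39; interval -1.29 to 0.46; edgeR adjusted p = 0.940), which spans 0.41-fold to 1.38-fold. It was -0.22 without Myriocin replicate 3, -0.27 without DMSO replicate 3 and -0.80 without the 3 libraries marked for liver transcripts, and none of these passed the test.

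Csrp3 (ENSMUSG00000030470, chromosome 7, 48830398 to 48848033, minus strand), the muscle LIM protein, held 47.9, 39.7, 36.2, 24.2 and 29.4 CPM in DMSO libraries 1 to 5. With myriocin it ran from 6.996 CPM in replicate 3 through a median of 34.4 to 40.6 CPM in replicate 6. Replicate 3 lay far below all other libraries, and the other myriocin libraries lay within or close to the DMSO range. For Csrp3 the log2 fold change was -0.22 (SE 0.38; interval -1.08 to 0.63; edgeR adjusted p = 0.959), and it shrank to -0.02 when Myriocin replicate 3 was left out and to -0.09 when DMSO replicate 1 was. It was -0.14 without Myriocin replicate 2 and -0.33 without Myriocin replicate 4. Larger values came with limma-voom (-0.40), in the replicate block fit (-0.48) and without the 3 liver-marked libraries (-0.53), none of which passed.

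Ankrd1 (ENSMUSG00000024803, chromosome 19, 36111961 to 36120099, minus strand), the cardiac ankyrin repeat protein that is induced in injured or loaded skeletal muscle, followed other libraries. It held 20.04, 47.6, 32.6, 19.9 and 28.9 CPM in DMSO libraries 1 to 5 and 34.5, 35.6, 17.3, 16.1, 14.9 and 27.1 CPM in myriocin libraries 1 to 6. Its lowest libraries were Myriocin replicates 5, 4 and 3, and Myriocin replicate 2, low for Ankrd2, was among its highest. Its log2 fold change was -0.25 (SE 0.30; interval -0.92 to 0.42; edgeR adjusted p = 0.948), with no sign that held under every setting. It was -0.05 without DMSO replicate 2, -0.14 without Myriocin replicate 5, -0.17 without Myriocin replicate 4, -0.38 without Myriocin replicate 1 and -0.39 without Myriocin replicate 2. It was 0.12 without DMSO replicates 2 and 5 and Myriocin replicate 4, and -0.04 with limma-voom and sample weights. Per length, Ankrd2 exceeded Ankrd1 by a ratio of 6.94 to 17.1 in DMSO libraries and 3.46 to 18.0 in myriocin libraries.

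Actn2, Myoz2, Csrp3 and Ankrd2 rose and fell together between libraries. Of 45 pairs of members, 9 correlated at an adjusted p under 0.05 (Pearson's r of log2 CPM over 11 libraries, 2-sided permutation test of 100000 resamples, adjusted over 45 pairs), all positively, and all 6 pairs among these 4 genes were included. Csrp3 and Ankrd2 had r = 0.95 (permutation p = 0.00021, adjusted 0.0047; Spearman's rho 0.78, permutation p = 0.00619, adjusted 0.135). Actn2 and Ankrd2 had r = 0.89 (permutation p = 2e-05, adjusted 9e-04; rho 0.95, p = 4e-05, adjusted 0.0018), and this was the pair that passed on ranks as well. Myoz2 and Ankrd2 had r = 0.88 (permutation p = 0.00111, adjusted 0.0165; rho 0.72, p = 0.0165, adjusted 0.137). The other 3 pairs past the threshold joined Myot to Ankrd1 (r = 0.82, permutation p = 0.00313, adjusted 0.0235; rho 0.73, p = 0.0147), to Actn2 (0.74) and to Ankrd2 (0.70), the last pair at an adjusted p of 0.0485.

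The count of pairs rested on Myriocin replicate 3. Without it 0 of 45 pairs passed, although 7 of the 9 had an unadjusted permutation p under 0.05. r was then 0.87 for Actn2 and Ankrd2 and 0.83 for Csrp3 and Ankrd2 (adjusted permutation p = 0.0576 for both). The other 4 pairs of the 4 genes were weaker: r was 0.72 for Myoz2 and Ankrd2, 0.66 for Myoz2 and Csrp3, 0.64 for Actn2 and Csrp3 and 0.56 for Actn2 and Myoz2, the last with an unadjusted permutation p of 0.097. The same library was also the lowest of the 11 for the summed markers of endothelium (233 CPM, against 286 to 335 CPM with DMSO), of smooth muscle and pericytes (323 CPM, against 366 to 474), of tendon (127 CPM, against 219 to 507) and of Schwann cells (60.4 CPM, against 77.2 to 116). It was the lowest as well for those of adipocytes (271 CPM, against 290 to 1679) and of erythroid cells (46.04 CPM, against 53.9 to 126), with no marker at 0 in all libraries. Other libraries were the lowest for the markers of heart, fibro-adipogenic progenitors, satellite cells, macrophages, neutrophils and hepatocytes. The part of any of these cell types in the correlations was not tested. Leaving out the 2 libraries farthest out on the first gene, r was 0.74 for Csrp3 and Ankrd2, 0.87 for Actn2 and Ankrd2, and 0.64 for Myoz2 and Ankrd2. It was 0.61 for Actn2 and Myoz2 and 0.52 for both Actn2 and Myoz2 with Csrp3. After the group means were taken out, r was 0.95, 0.90 and 0.87 for the 3 pairs with Ankrd2, and 6 of 45 pairs passed. Of the pairs among the 4 genes, Actn2 and Myoz2 no longer passed (r = 0.75, adjusted permutation p = 0.083), and the sixth pair that passed was Myot and Ankrd1. No pair of paralogs passed: r was -0.20 for Actn2 with Actn3 (permutation p = 0.558; rho -0.34, p = 0.311), -0.22 for Myoz1 with Myoz2 (p = 0.515; rho -0.15, p = 0.671) and 0.37 for Ankrd1 with Ankrd2 (p = 0.269; rho 0.25, p = 0.449). Actn3 depended on DMSO replicate 2 and Myriocin replicate 4, the 2 libraries farthest out on it. Against Ankrd2 its r was -0.18 (permutation p = 0.572, with rho -0.44, p = 0.182), and -0.82 without these 2 libraries. Against Myoz2 it was 0.02 (permutation p = 0.946, with rho -0.05, p = 0.879), and -0.88 without them. The values without the 2 libraries were not tested. Each gene of a pair shares its library and that library's depth and scaling with the other.

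**Figure D4:**
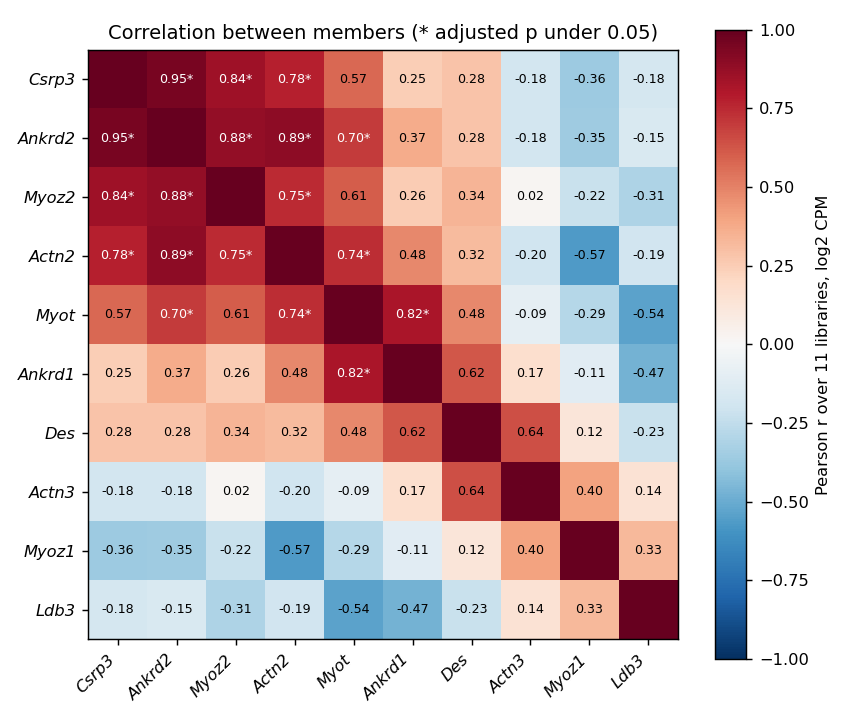
Pearson's r between each pair of members over the 11 libraries (log2 CPM), with red for positive and blue for negative values and a star where the permutation p, adjusted over 45 pairs, was under 0.05. Csrp3, Ankrd2, Myoz2 and Actn2 form a block of values from 0.75 to 0.95 at the upper left, and Actn3, Myoz1 and Ldb3 lie outside it.

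Myoz2 followed the slow fibre genes. Against the mean log2 CPM of 10 slow fibre genes, none of them a member, Myoz2 had r = 0.90 (permutation p = 5e-05, adjusted 0.001 over 20 relations; rho 0.88, p = 0.00063, adjusted 0.0126) and r = 0.81 without the 2 libraries farthest out, DMSO replicate 2 and Myriocin replicate 3. It kept an adjusted p of 0.0392 without Myriocin replicate 3, and with the group means taken out r was 0.92. Ankrd2 and Csrp3 gave 0.68 and 0.67 (permutation p = 0.0129 and 0.0111, adjusted 0.0861 for both; rho 0.55 and 0.48, p = 0.0827 and 0.138), and both were 0.42 without the 2 farthest libraries. None of the 10 relations with the 10 fast fibre genes passed; the highest was Myoz1, with r = 0.53 (permutation p = 0.0918, adjusted 0.393; rho 0.56, p = 0.0763).

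The same 4 members correlated with Myh2, a relation chosen after the values of Myh2 had been seen. Myh2 is also in the fast fibre list, with whose mean no member passed. In Myriocin replicate 3, the lowest library for Myh2, Myh4 of the same list was at its highest, 75704 CPM. Over 11 libraries r was 0.91 for Ankrd2 (permutation p = 0.00122, adjusted 0.0051 over 10 relations; rho 0.75, p = 0.0114) and 0.91 for Myoz2 (p = 3e-04, adjusted 0.003; rho 0.85, p = 0.0015). It was 0.89 for Csrp3 (p = 0.00313, adjusted 0.0078; rho 0.72, p = 0.0165) and 0.81 for Actn2 (p = 0.00152, adjusted 0.0051; rho 0.72, p = 0.0162). The remaining 6 members had r between -0.27 and 0.49 and did not pass. The 2 libraries farthest out on Myh2 were Myriocin replicates 2 and 3, and without them r was 0.61 for Ankrd2, 0.75 for Myoz2, 0.44 for Csrp3 and 0.64 for Actn2. Without Myriocin replicate 3 alone r was 0.71, 0.80, 0.61 and 0.68, and none of the 4 passed the adjusted threshold (adjusted permutation p = 0.116, 0.0599, 0.156 and 0.116).

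**Figure D5:**
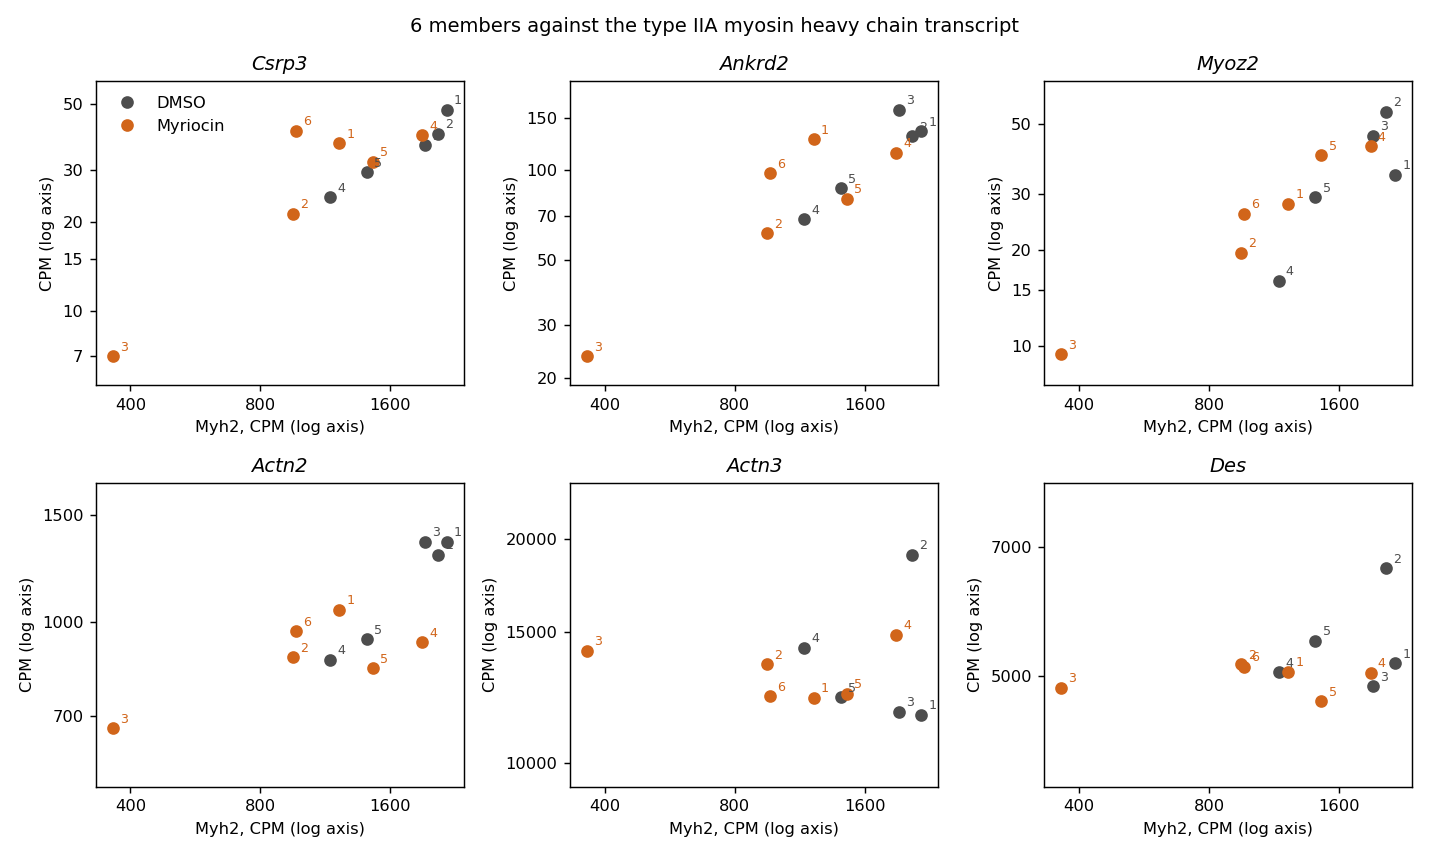
CPM of 6 members against CPM of Myh2, the type IIA myosin heavy chain, with both axes on log scales and 1 point per library numbered by replicate. Csrp3, Ankrd2, Myoz2 and Actn2 rise with Myh2, with Myriocin replicate 3 at the lower left at 364 CPM of Myh2. Actn3 (r = -0.04) and Des (r = 0.33) show no such rise.

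The genes with the most similar profiles over the 11 libraries are given as a description, each chosen as one of the highest r among 7143 genes of at least 10 CPM. Csrp3 was most like Ankrd2 (r = 0.95) and Fhl1, a LIM protein of muscle (0.95), and Ankrd2 was in turn most like Csrp3 and then Acsf3, an acyl-CoA synthetase of mitochondria (0.93). Actn2 was most like Acsl1, which activates long-chain fatty acids (0.95), and Acadvl, the very long-chain acyl-CoA dehydrogenase (0.90). Myoz2 was most like Nudt7, a hydrolase of coenzyme A in peroxisomes (0.99), and the slow myosin light chain Myl2 (0.97). On the fast side, Myoz1 was most like Capzb, the capping protein subunit that caps thin filaments at the Z-disc (0.93), and the fast fibre calcium buffer Pvalb (0.91). Actn3 was most like Derl1, of endoplasmic reticulum protein degradation (0.95), and the cold shock domain protein Ybx3 (0.92). Ldb3 was most like the ubiquitin ligase Syvn1 (0.93) and the Mediator subunit Med24 (0.91), and Myot most like the apoptosis regulator Mcl1 (0.91) and the deubiquitinase Otulin (0.90). Des was most like the proteasome subunit Psmd4 (0.93) and the autophagy protein Gabarap (0.92). Ankrd1 was most like the RNA-binding protein Hnrnpf (0.89) and Gdi2, a regulator of Rab proteins (0.89).

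Other genes of the Z-disc and its signalling gave 0 calls in either direction in edgeR. Of 25 further Z-disc genes, 11 were positive and 14 negative (median log2 fold change -0.02). In edgeR 3 of them had an unadjusted p under 0.05, against 4.68% of all genes tested. Of the lists below, those of titin and the M-band, the costamere, intermediate filaments, calcineurin and MEF2, and SRF and YAP had 2 such genes each. The slow and fast lists had 1 each and the denervation and regeneration list 0. The lists were not tested as sets. Those with the smallest p were Cryab, a small heat shock protein that guards desmin and titin (-0.27, SE 0.11), and its partner Bag3, the co-chaperone that clears damaged filamin (-0.23, SE 0.09; edgeR adjusted p = 0.936 for both). Of 14 genes of titin and the M-band, 8 were positive and 6 negative, with a median of 0.06. Ankrd23, the third ankyrin repeat protein of the Ankrd1 and Ankrd2 family (-0.22, SE 0.07), and titin itself, Ttn (0.26, SE 0.10), had the smallest p in that list and did not pass (adjusted p = 0.936 for both in edgeR).

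The costamere, which couples Z-discs to the membrane, had 6 positive and 5 negative of 11 tested genes, with a median of 0.01, led by Lims2 (-0.23, SE 0.08) and Parva (-0.20, SE 0.08), adaptors of integrin-linked kinase. Of 9 other intermediate filament genes and partners, 4 were positive and 5 negative with a median of -0.07, among them Nes, a partner of desmin in young and regenerating fibres (0.19, SE 0.07), and Krt19, a keratin of the costamere (-0.93, SE 0.39). The 13 genes of calcineurin, NFAT and MEF2 had 9 positive values with a median of 0.04, led by the calcineurin-regulated factors Nfatc4 (-0.36, SE 0.15) and Nfatc3 (0.19, SE 0.08). Among 12 genes of SRF and YAP signalling, through which load acts on transcription, 8 were negative with a median of -0.03. Its leading members were the YAP targets Ccn1 (-0.44, SE 0.18) and Amotl2 (-0.28, SE 0.12). Of 10 denervation and regeneration genes 7 were positive with a median of 0.12, led by the fetal acetylcholine receptor subunit Chrng (0.92, SE 0.68) and Gadd45a (-0.18, SE 0.15). The slow list had 8 of 10 negative with a median of -0.11, led by Myh7b (-0.52, SE 0.21) and Myl2 (-0.53, SE 0.94), and the fast list 7 of 10 positive with a median of 0.15, led by Myh4 (0.20, SE 0.08) and Mybpc2 (0.15, SE 0.08). None of the genes named in these lists passed edgeR's adjusted threshold (adjusted p from 0.936 to 0.960).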

How the data were processed

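RNA of quadriceps was sequenced in 11 libraries. The authors deposited 1 table of raw counts of reads per Ensembl gene, with no normalization. Per the submitters' processing notes the tools were STAR 2.5.2b and HTSeq 0.6.0, and the build was GRCm38. Annotation release, strand setting and filters: not given in the sources used here. The 5 HTSeq summary lines, 24.8% to 28.2% of the reads of a library, stayed out of totals and tests. Columns were assigned by name, with 0 left over. GENCODE M21 (GRCm38) gave symbols, coordinates and exon lengths for 53360 of 53465 genes. RefSeq promoter windows (GRCm38.p6) were read for 7 members, and not for Actn3, Myoz1 and Myot. Any window on chromosome 18, where Myot lies, was left out of the reading.

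CPM values are counts over library totals. Tests used edgeR 4.0.16 in R 4.3.3: filterByExpr by group (minimum count 10, total 15), TMM, glmQLFit with robust estimation and glmQLFTest, 2-sided, treatment as single factor. SE is the absolute log2 fold change over the square root of F. Correlations used TMM-scaled log2 CPM with a prior count of 2. Alternatives used DESeq2 1.42.0, limma 3.58.1 and the settings in the closing section. The pairs of libraries in a group differed by more than counting noise. The smallest p the permutations can give is 1e-05.

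Named genes were the members, the 2 with the smallest p in each list, and the 2 most correlated with each member. Myh2, Alb and Gm15179 fall outside this rule, and Myh2 and Alb were chosen after their values were seen. Members, lists and alternatives were chosen with earlier results of these data known. Intervals take in the library spread besides counting error, and reads may include PCR copies.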

Additional observations from a re-analysis of the deposited data

How the results depend on the processing

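The number of members called stayed at 0 under all 24 alternatives, and the median of the members stayed negative, between -0.22 and -0.04. Genes called over the whole table stayed at 0 except with DESeq2, which called 6. At an unadjusted p under 0.05 the number went from 660 to 1167 without the filter, 1091 with limma-voom and sample weights, 1449 without Myriocin replicate 4, and 1022 and 1140 without the liver-marked libraries (DMSO 4, DMSO 5, Myriocin 4) or the 3 most distant ones (DMSO 2, DMSO 5, Myriocin 4). Of the values of single members under these settings 225 kept their sign and 15 turned, none of them called. Actn3 (reported value -0.01) was 0.0029 with limma-voom, 0.027 with sample weights, 0.065 without the 3 most distant libraries, 0.027 with a replicate block, and -0.068 to 0.108 when single libraries were left out. Ldb3 (0.03) was -0.0042 without scaling, a setting that moved the median of all genes from -0.01 to -0.05, -0.038 with sample weights, -0.070 without the 3 most distant libraries and -0.014 to 0.068 when single libraries were left out. Without the 3 most distant libraries Ankrd1 was 0.125 and Des 0.0048. The cause of these turns was not tested. The number of relations with the fibre lists past the threshold was 1, and 1 to 3 when single libraries were left out. The number of member pairs was 9, and 0 to 10 when single libraries were left out, with 0 without Myriocin replicate 3 and 5 without DMSO replicate 2, DMSO replicate 4 or Myriocin replicate 2. No sign was seen that the replicate numbers pair the libraries: r of same-numbered deviations lay between -0.13 and 0.09, and 0 of 5 libraries correlated best with its own number. A pairing with little effect on the whole profile would not show in this check. In the fit with the block the genes called stayed at 0 and the median of the members was -0.21, against -0.19 on the same 10 libraries without the block, which is the fit without Myriocin replicate 6. The lowest count of Csrp3 in a library was 160, and the effect of depth on the low members was not tested.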
